A study of Mus musculus with 6 samples.

Results

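Neuromedin U is a small secreted neuropeptide, and the 4 genes described here are Nmu, which encodes it, Nms, which encodes the related peptide neuromedin S, and Nmur1 and Nmur2, which encode their receptors. They are 4 of 17418 genes that the array annotation names with a single symbol, and each was measured by 1 of 22369 probesets. The genes were chosen by the log2 intensity of Nmu in these same arrays, which differed between tamoxifen treated and control mice, and so the values of the 4 genes in this comparison are a description and carry no test.

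MECs (mammary epithelial cells) were profiled on 6 Affymetrix mouse arrays, 3 for pools from control mice and 3 for pools from tamoxifen treated mice. The epithelium came from p53-null female Balb/c donors of 8 weeks and was grown from duct fragments in Balb/c hosts with intact p53 whose fat pads had been cleared at 3 weeks of age, 5 weeks before transplantation, so every pool, controls included, was p53 null epithelium in a host that kept its own stroma, vessels and immune cells. Tamoxifen, a selective estrogen receptor modulator, was given as a 5 mg pellet for 13 weeks and control mice carried a sham pellet. The tamoxifen pools were collected 4 weeks after the pellet was taken out, and all mice, controls too, received 100 ug of 17-beta-estradiol (E2) 8 h before collection. When pellets were implanted the hosts were 8 weeks old by the labels, younger than in the methods of the study. The labels also name 5 mice per pool in one place and 3 to 5 in another, and nothing states whether any mouse gave RNA to more than 1 pool, so the p-values given for other genes measure the spread between these pools.

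Neuromedin U is cut from a larger precursor and amidated at its C-terminal end, which neuromedin S shares. Both peptides bind the G protein-coupled receptors NMUR1, found mainly in peripheral tissues and on some immune cells, and NMUR2, found mainly in the central nervous system. The receptors couple to Gq and Gi proteins, which raise intracellular calcium and lower cyclic AMP. In mice, neuromedin U from neurons activates group 2 innate lymphoid cells through NMUR1, and neuromedin S is a peptide of the hypothalamic clock.

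The stretch of genome around the start of Nmu is shown because Nmu is the gene on which the results turn and because estrogen receptor ligands were given to the mice. Its 250 bases before and 50 bases after the RefSeq start are on the minus strand of GRCm38.p6 at chr5:76363728-76364027, and capitals mark the matches to the motifs searched.
Nmu: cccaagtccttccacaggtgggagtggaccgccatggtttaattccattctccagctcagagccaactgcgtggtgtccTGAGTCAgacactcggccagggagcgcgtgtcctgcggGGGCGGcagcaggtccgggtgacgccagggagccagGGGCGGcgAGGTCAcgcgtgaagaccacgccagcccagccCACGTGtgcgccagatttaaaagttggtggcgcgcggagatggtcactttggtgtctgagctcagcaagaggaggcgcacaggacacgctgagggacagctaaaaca
Of 5 motifs searched on both strands, 4 were found. The AP-1 motif TGANTCA matched 171 bases before the start, the GC box GGGCGG matched 133 and 97 bases before it, the estrogen response element half-site AGGTCA 89 bases before it and the E-box CACGTG 57 bases before it. Matches to these motifs were held by 7.81% (AP-1), 35.7% (GC box), 16.3% (half-site) and 7.15% (E-box) of all 32851 promoter windows of this length. The full estrogen response element, AGGTCA and TGACCT parted by NNN, was not among these letters, and it was found in 0.0213% of the windows. These matches are letters in the reference, and no binding was measured.

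Nmu was dim in the control pools and bright in the tamoxifen pools. Its intensity was 78.8 in control 1, 104 in control 2 and 78.4 in control 3. After tamoxifen its intensity was 8006 in pool 1, 7628 in pool 2 and 7096 in pool 3. All tamoxifen pools were thus far above all control pools, the groups did not overlap, and pools of 1 group were close to each other. The group means were 87.1 ± 14.8 (SD, n = 3 pools) and 7577 ± 458 (SD, n = 3), a difference of 6.45 on the log2 scale (SE 0.13) and an 87.6-fold ratio of geometric means. Over the single pairs of pools the ratio ran from 68.1, for the dimmest tamoxifen pool over the brightest control, to 102. Taken against the geometric mean of the controls, the 3 tamoxifen pools were 92.7-fold, 88.3-fold and 82.2-fold higher. Of all probesets, 21.0% had groups without overlap, 9.79% higher and 11.2% lower after tamoxifen, and nothing is read from the same pattern in Nmu, since this contrast chose it.

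The spread within groups was small beside this difference. The SD of log2 intensity of Nmu was 0.23 among controls and 0.09 among tamoxifen pools, beside medians over all probesets of 0.10 and 0.13. Control 2 held the highest control value and accounted for most of the control spread. Without control 2 the ratio of geometric means was 96.3-fold, and over the other 5 arrays left out in turn its lowest value was 83.5-fold. The ratio was 64.1-fold with 32 added to every intensity, which in proportion raises the low control values far more than the high tamoxifen values.

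**Figure D1:**
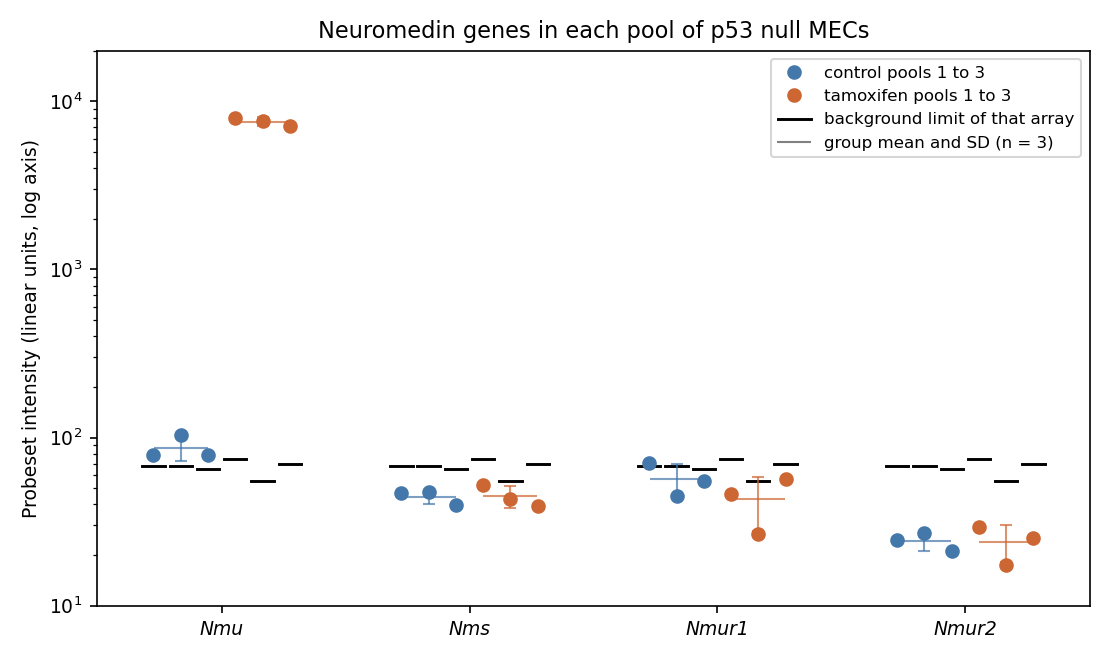
Probeset intensity (log axis) of Nmu, Nms, Nmur1 and Nmur2 in each of the 3 control and 3 tamoxifen pools, with group means and SDs (n = 3) and, as black dashes, the background limit of each array. Nmu lies at 78.4 to 104 in the controls and 7096 to 8006 after tamoxifen, while the other 3 genes lie at or near the limit or under it in both groups.

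Whether the low values stand for any transcript was judged against a background range, since the table holds no detection calls. The range was set on each array by 908 probesets of olfactory, vomeronasal and trace amine receptor genes, which sense odours and pheromones and are not genes of mammary epithelium, and its limit was their 95th percentile. The limit lay between 55.3 and 74.8 over the 6 arrays. In the control pools Nmu was 1.16 to 1.54 times the limit of its array, and its control mean was above that of 97.4% of the 908 probesets. At the 99th percentile, which was 100 to 153 over the arrays, all control values of Nmu were inside the range. In the tamoxifen pools Nmu was 103 to 138 times the limit. The control level of Nmu was thus near the top of the background range, so the size of the ratio rests on values close to background. Probesets differ in brightness for reasons other than transcript amount, so the range is not a detection call.

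Nmur1, the peripheral receptor, was dim in both groups. Its intensity was 70.3, 45.1 and 55.3 in controls 1 to 3 and 46.2, 26.6 and 56.4 in tamoxifen pools 1 to 3. The groups overlapped, and only control 1 exceeded the background limit of its array, which was 68.1 there. The means were 56.9 ± 12.6 and 43.1 ± 15.1 (SD, n = 3 each), a log2 difference of -0.45 with an SE of 0.30. Tamoxifen 2 held the lowest value, and without it the log2 difference was -0.13. In the tamoxifen pools Nmur1 lay in the background range on all 3 arrays.
Nmur2, the receptor of the central nervous system, lay in the background range on all 6 arrays. Its intensity was 24.5, 27.1 and 21.2 in controls and 29.3, 17.5 and 25.4 after tamoxifen, 0.317 to 0.400 times the limit. The groups overlapped, with a log2 difference of -0.04 (SE 0.20), and the sign turned when single arrays were left out, from -0.19 to 0.18. No difference in either receptor could be seen at this brightness, which does not show that the receptors were absent or alike.
Nms, the gene of the other ligand, was likewise in the background range on all 6 arrays. Its intensity was 46.7, 47.1 and 39.7 in controls and 52.4, 43.3 and 39.4 after tamoxifen. The groups overlapped, and the means of 44.5 ± 4.19 and 45.0 ± 6.71 (SD, n = 3 each) gave a log2 difference of 0.01 (SE 0.13). Of the 4 genes, Nmu was the one above the background range in every tamoxifen pool.

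**Figure D2:**
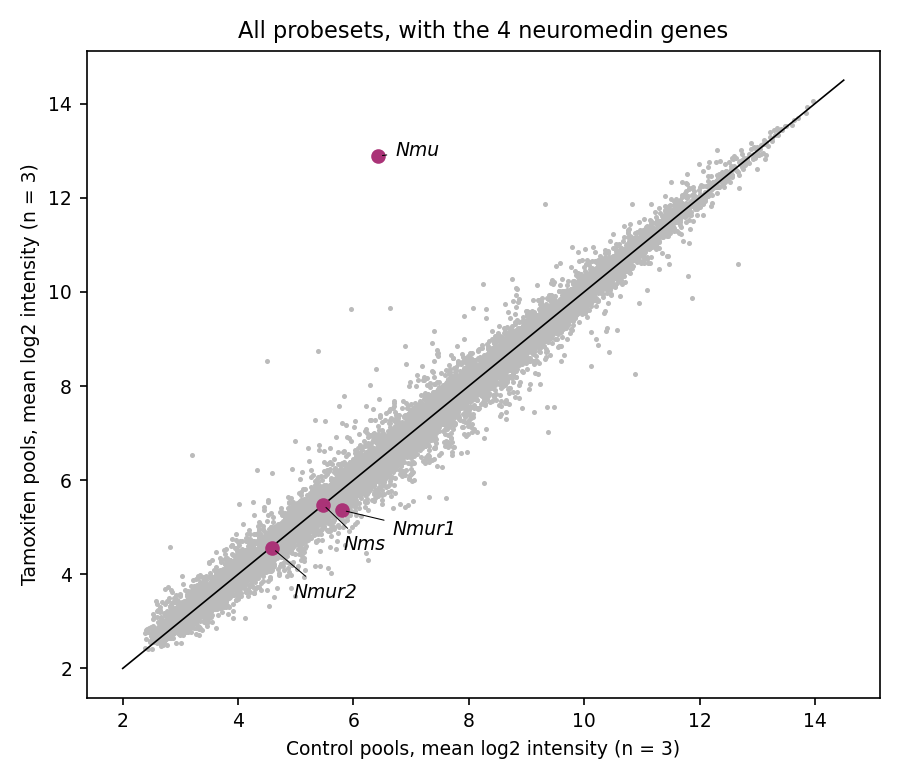
Mean log2 intensity of each of 22369 probesets in the control pools (horizontal axis, n = 3) and the tamoxifen pools (vertical axis, n = 3), with the line of equality and the 4 neuromedin genes marked. Nmu stands 6.45 above the line, and Nms, Nmur1 and Nmur2 lie in the dim part of the cloud at differences of 0.01, -0.45 and -0.04.

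Among all probesets, the log2 difference of Nmu ranked 1 of 22369, and the second, that of Obp2a, which encodes an odorant-binding lipocalin, was 4.04. Obp2a lay in the background range on all 3 control arrays, at 25.9, 24.6 and 18.1, so its step is taken from background. A log2 difference of 1 or more was seen in 70 probesets and of 3 or more in 6, and 74 probesets were lower by 1 or more. Arrays of the 6 pools had mean intensities of 395 to 403 and a median log2 difference over all probesets of -0.02.
The 5 genes whose pattern was most like that of Nmu were taken from the 100 other genes with a log2 difference of at least 1 in either direction, by Pearson's r of log2 intensity over the 6 arrays. They were Pcp4, a calmodulin regulator (r = 0.998), Ppp2r2c, which encodes a subunit of a protein phosphatase (0.994), Iqcg, a gene of cilia and flagella (0.994), Krt4, a keratin of stratified epithelia (0.994), and Obp2a (0.994). As the 6 arrays form 2 groups, r mostly restates the step between the groups that chose Nmu. The fitted steps were 3.03 in Pcp4, 1.97 in Ppp2r2c, 1.09 in Iqcg, 3.69 in Krt4 and 4.04 in Obp2a on the log2 scale. The controls of Obp2a and Iqcg lay in the background range on all 3 arrays, so their steps have no measured lower end. Krt4 lay in that range on control 3. On controls 1 and 2 its 72.0 and 69.2 were just above limits of 68.1 and 67.7, so its step starts close to background. By distance between control-centred profiles, 4 of the 5 were named again, with Fam183b in place of Iqcg.

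The genes that flank Nmu on chromosome 5 differed by at most 0.40 on the log2 scale, beside 6.45 for Nmu. Of the 5 measured protein-coding genes on each side, 0 rose and 0 fell by limma at an adjusted p under 0.05, beside 0.282% of all probesets that rose and 0.107% that fell, while without adjustment 1 was higher and 1 lower at p under 0.05, beside 6.55% and 5.87% of all probesets. By the methods' t-test, called at the same adjusted threshold, 0 rose and 0 fell. Their log2 differences ran from -0.22 to 0.40 with a median of -0.01. Pdcl2, a phosducin-like gene next to Nmu on one side, lay in the background range on all arrays and differed by -0.01. Exoc1, a subunit of the exocyst complex next to it on the other side, differed by -0.07 (adjusted p = 0.8). Clock, a transcription factor of the circadian clock and the second gene from Nmu, had intensities of 961, 1002 and 982 in the control pools. In the tamoxifen pools Clock had 1265, 1269 and 1357, and the groups did not overlap. Its log2 difference was 0.40 (SE 0.07, adjusted p = 0.0906 from limma), and it passed in 2 of 14 alternatives. Tmem165, a Golgi ion transporter gene beyond Clock, had -0.22 (adjusted p = 0.346). The other 6 were Kdr, the VEGF receptor, at 0.19, Srd5a3, a polyprenol reductase, at -0.10, Cep135, a centriole gene, at 0.09, Cracd at 0.17, Aasdh at -0.05 and Ppat, a purine synthesis enzyme, at -0.01.
Around Nmur1, Nmur2 and Nms, also 0 of 10 measured neighbours each rose and 0 fell by limma, with medians of -0.01, -0.05 and -0.04. At p under 0.05 before adjustment, 1 neighbour of Nmur1 was higher and 0 lower, 0 of Nmur2 were higher and 2 lower, and 0 of Nms were higher and 1 lower. The shares over all probesets were 6.55% higher and 5.87% lower before adjustment, and 0.282% that rose and 0.107% that fell.

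**Figure D3:**
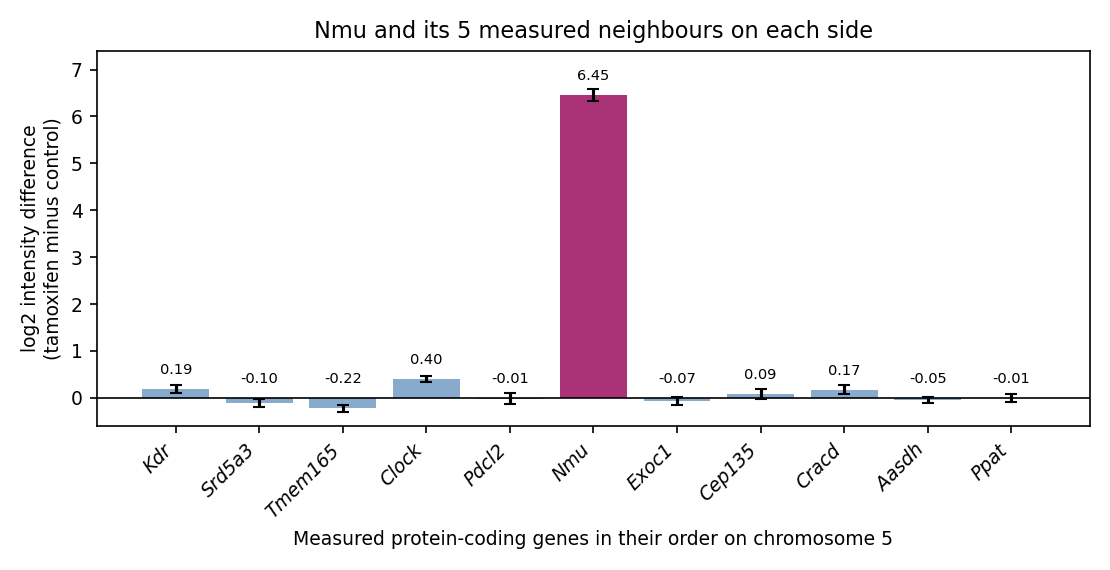
Difference of mean log2 intensity, tamoxifen minus control, of Nmu and the 5 nearest measured protein-coding genes on each side, in gene order on chromosome 5 and with bars for the SE from limma. Nmu stands at 6.45 and the 10 neighbours between -0.22 and 0.40.

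No gene that turns a precursor into an active peptide passed the test. Of 14 listed convertases, carboxypeptidases and helpers 11 were measured, and by limma 0 rose and 0 fell, beside 0.282% and 0.107% of all probesets. Without adjustment 1 was higher and 1 lower at p under 0.05, beside 6.55% and 5.87% of all probesets. The median log2 difference was -0.05, beside -0.02 over all probesets. Cpe, carboxypeptidase E, which trims the basic residues left after cleavage, had intensities of 503, 533 and 623 in controls. After tamoxifen it had 958, 895 and 881, and the groups did not overlap. Its log2 difference was 0.73 (SE 0.10, adjusted p = 0.0578 from limma), and over 14 alternatives the adjusted p ran from 0.021 to 0.24, passing in 4. Cpz, a further carboxypeptidase, had -0.35 (adjusted p = 0.181). Furin, a convertase of the constitutive secretory route, was at 1303 ± 15.8 in controls and 1293 ± 17.5 after tamoxifen. Pcsk1, a convertase of neuroendocrine granules, lay in the background range on all arrays, at 40.5 to 47.4 in controls and 42.3 to 51.7 after tamoxifen. Pcsk7 and Pcsk5, other convertases, had -0.14 (adjusted p = 0.506) and -0.16 (adjusted p = 0.548). Pam, the amidating enzyme, was not analysed here.
Of 25 genes of dense-core granules and regulated secretion, 0 rose and 0 fell by limma, and the median was -0.01. Without adjustment 3 were higher and 1 lower at p under 0.05, beside 6.55% and 5.87% of all probesets. Scg3, a granin that sorts cargo into granules, had 356, 362 and 422 in controls. After tamoxifen it had 173, 225 and 223, lower in all 3 pools. Its log2 difference was -0.88 (SE 0.13, adjusted p = 0.071 from limma), with a range of 0.0294 to 0.239 over 14 alternatives, of which 4 passed. Rab3b, a small GTPase of secretory vesicles, had 0.37 (adjusted p = 0.228), Snap25, a SNARE protein gene, 0.23 (adjusted p = 0.317) and Cadps2, a priming factor of granules, 0.24 (adjusted p = 0.387). Snap25 lay in the background range on all arrays, and Rab3b exceeded the limit on 1 of 3 control arrays and on 3 of 3 tamoxifen arrays. Chga, chromogranin A, the classic marker of such granules, was at 79.6 to 107 in controls and 75.6 to 106 after tamoxifen.

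In the G protein pathway that the receptors use, Rgs4 rose and no other member passed. Of 31 listed genes 27 were measured, all of them above the background limit on all 6 arrays. By limma 1 rose and 0 fell, beside 0.282% and 0.107% of all probesets. Without adjustment 4 were higher and 1 lower at p under 0.05, beside 6.55% and 5.87% of all probesets, and the median log2 difference was 0.07. Rgs4, which speeds the shut-off of Gq and Gi proteins, had 359, 455 and 499 in controls. After tamoxifen it had 880, 861 and 935, higher in all 3 pools. Its log2 difference was 1.04 (SE 0.13, adjusted p = 0.0451 from limma), and it passed in 6 of 14 alternatives, with an adjusted p of up to 0.214 and no call when any 1 array was left out. Of the alpha subunits of the Gq family, Gna14 had 294, 320 and 396 in controls. After tamoxifen it had 268, 250 and 275, lower in all 3 pools, with a log2 difference of -0.34 (SE 0.12, adjusted p = 0.355), and it was the 1 lower gene of the list before adjustment. The other members of that family, Gnaq, Gna11 and Gna15, were at 0.10 (adjusted p = 0.638), -0.03 (adjusted p = 0.915) and 0.13 (adjusted p = 0.709). Gnao1, an alpha subunit of Gi type proteins, had 0.39 (adjusted p = 0.232). Plcb1, a phospholipase that Gq proteins activate, had 0.33 (adjusted p = 0.212), and Grk5, a receptor kinase, 0.33 (adjusted p = 0.22).
Of 19 related peptides and receptors, such as ghrelin, neurotensin, the neuromedins of other families and the tachykinins, 0 rose and 0 fell by limma. At p under 0.05 before adjustment, 0 were higher and 1 lower, beside 6.55% and 5.87% of all probesets. The median was -0.01, and 9 of the 19 lay in the background range on all arrays. Trh, thyrotropin-releasing hormone, had -0.29 (adjusted p = 0.36), Tacr1, the substance P receptor, 0.28 (adjusted p = 0.429), Gpr39, a receptor of the ghrelin receptor family, 0.31 (adjusted p = 0.433), and Trhr2, a thyrotropin-releasing hormone receptor, -0.32 (adjusted p = 0.542). Trh, the 1 lower gene before adjustment, and Trhr2 each exceeded the limit on 2 of 3 control arrays. Both lay in the background range on all 3 tamoxifen arrays, so their differences end in background. Nmb, neuromedin B, a bombesin-like peptide with a shared name but another receptor, was at 117 ± 6.70 in controls and 121 ± 12.7 after tamoxifen.

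**Figure D4:**
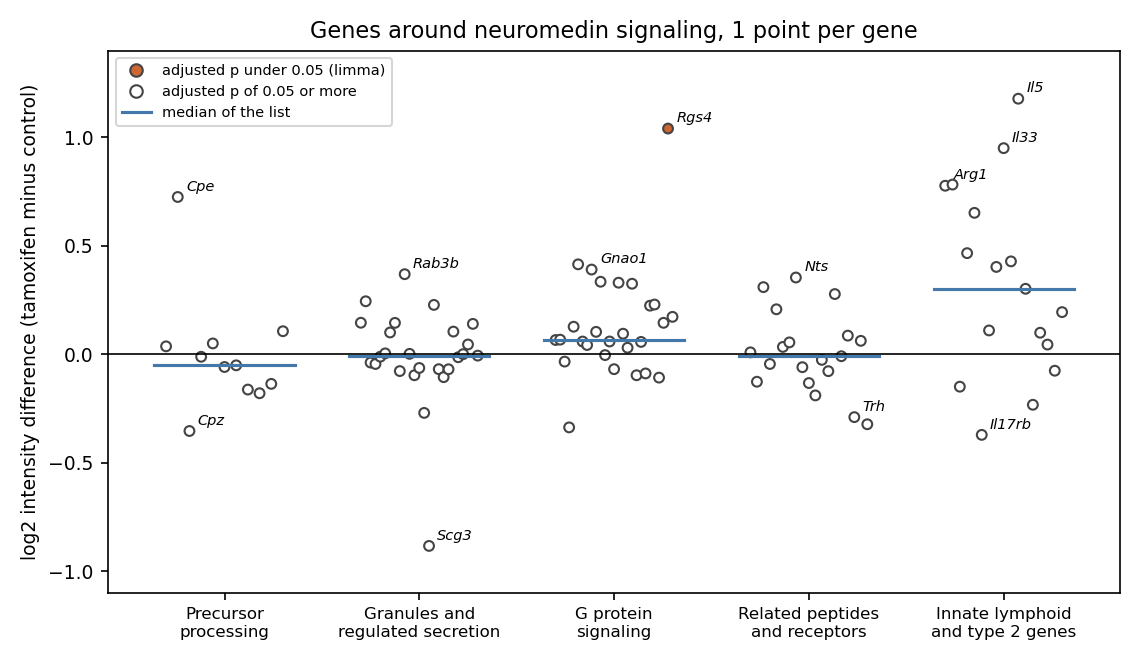
Difference of mean log2 intensity, tamoxifen minus control, for each measured gene of 5 lists, with the list median as a line. The filled point, Rgs4 at 1.04, is the gene past an adjusted p of 0.05 by limma, and the list medians lie between -0.05 and 0.30.

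Type 2 immune genes were looked at because group 2 innate lymphoid cells respond to neuromedin U. Of 18 listed genes 17 were measured, and by limma 0 rose and 0 fell, while without adjustment 2 were higher and 1 lower at p under 0.05, beside 6.55% and 5.87% of all probesets. The median log2 difference was 0.30, and 0.10 without tamoxifen 2. Il33, an alarmin that activates these cells, had 659, 1153 and 1143 in controls. In the tamoxifen pools Il33 had 1757, 2044 and 1745, and the groups did not overlap, as in 9.79% of all probesets. Its log2 difference was 0.95 (SE 0.23, adjusted p = 0.194 from limma), and 0.68 at the lowest over the alternatives. Arg1, arginase 1, an enzyme of these cells and of macrophages, had 536, 807 and 741 in controls. After tamoxifen it had 1171, 1165 and 1182, a log2 difference of 0.78 (adjusted p = 0.135). Il5, a cytokine of these cells, had 35.6, 33.3 and 44.7 in controls and 57.6, 219 and 48.7 after tamoxifen, and its log2 difference of 1.18 (adjusted p = 0.463) was 0.50 at the lowest over the alternatives. Il5 lay in the background range on all 3 control arrays and on 2 of 3 tamoxifen arrays, so its difference is taken from background. Il13, a further type 2 cytokine, had 107, 115 and 99.1 in controls and 142, 269 and 124 after tamoxifen (log2 difference 0.65, adjusted p = 0.428). For Il5 and Il13 the bright value was that of tamoxifen 2. Il17rb, a chain of the receptor for interleukin 25, had -0.37 (adjusted p = 0.23).
Lymphocyte markers stood apart in the same pool. The summed intensity of 6 measured T and NK cell markers was 1778 to 1985 in the controls, and 1775, 3916 and 1426 in tamoxifen pools 1 to 3. The sum of 4 B cell markers was 1060 to 2217 in controls and 1039, 3208 and 789 after tamoxifen. By limma 0 of these markers rose and 0 fell, and without adjustment 0 were higher and 1 lower at p under 0.05. The shares over all probesets were 6.55% higher and 5.87% lower. In such bulk samples fewer cells of a type and less RNA per cell cannot be told apart. The part of lymphocytes in the type 2 gene values was not tested. Nmu in tamoxifen 2, at 7628, lay between the other tamoxifen pools, and without tamoxifen 2 its log2 difference was 6.45.

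Markers of the labelled cell type were bright in all pools, beside those of other cells of the gland. All 10 measured luminal markers and all 9 basal markers were above the background limit on every array, with Krt18, a luminal keratin, at 10199 to 10760 in controls and 9843 to 10687 after tamoxifen. The same held for 6 of 6 fibroblast and 6 of 6 endothelial markers, so RNA of other cells of the gland was measured too. Over all probesets, 0.282% rose and 0.107% fell. Before adjustment 6.55% were higher and 5.87% lower at p under 0.05, the shares to set beside every marker count below. The summed luminal markers were 40649 to 42099 in controls and 38672 to 40788 after tamoxifen, with 0 past the adjusted threshold and 3 lower at p under 0.05 before adjustment. Those 3 were Elf5 at -0.70 (adjusted p = 0.258 from limma), Esr1, an estrogen receptor gene, at -0.45 (adjusted p = 0.357) and Cldn3 at -0.39 (adjusted p = 0.36). Of the 10 luminal differences 7 were negative and 3 positive. Without overlap 4 were lower and 0 higher, beside 11.2% and 9.79% of all probesets. The summed endothelial markers were 11092, 13072 and 12862 in controls 1 to 3 and 13931 to 14560 after tamoxifen, without overlap. Of these markers 0 were past the adjusted threshold and 2 were higher before adjustment. Each of the 6 endothelial markers was higher without overlap, as were 9.79% of all probesets. Their median log2 difference was 0.21, and 0.11 without control 1, the pool with the lowest sum. Basal and fibroblast markers had medians of 0.02 and 0.00 and 0 past the adjusted threshold, with 2 basal markers higher and 1 fibroblast marker lower before adjustment. Without overlap 2 basal markers were higher, Myh11 at 0.29 and Mylk at 0.18, and 2 were lower, Krt5 at -0.29 and Krt14 at -0.14. Of the 9 basal differences 5 were positive and 4 negative, a split that the median does not show. Of the fibroblast markers 0 were higher and 2 lower without overlap. The shares over all probesets were 9.79% higher and 11.2% lower. Of the neuroendocrine markers 4 of 7, and of the neuron and nerve markers 4 of 9, were above the background limit on every array. Of the 7 neuroendocrine markers 0 rose and 0 fell, without adjustment 2 were higher and 0 lower at p under 0.05, and their sum was 472 to 523 in controls and 484 to 589 after tamoxifen. Of the 2 higher neuroendocrine markers, Neurod1 lay in the background range on all arrays. Of the 9 measured neuron and nerve markers 0 rose and 0 fell, and without adjustment 2 were higher and 0 lower at p under 0.05. Without overlap 3 were higher and 0 lower, beside 9.79% and 11.2% of all probesets. Of these 3, Snap25 and Nefm lay in the background range on all arrays, and Snap25 was also 1 of the 2 higher before adjustment. The sum of the 9 markers was 1306 to 1461 in controls and 1332 to 1398 after tamoxifen. Its largest part was Sox10, at 838, 685 and 646 in controls and 579, 564 and 648 after tamoxifen, with overlap. Sox10 had a log2 difference of -0.27, so the sum leans on Sox10 and does not show how the other markers moved. Of the 9 differences 4 were positive and 5 negative. Stmn2, a neuronal growth-associated gene of that list, had 180, 210 and 226 in controls and 320, 346 and 327 after tamoxifen (log2 difference 0.70, adjusted p = 0.0685 from limma, passing in 4 of 14 alternatives). Of the stratified epithelium markers, which are listed because Krt4 belongs to such tissue, 0 of 7 rose and 0 fell, without adjustment 0 were higher and 1 lower at p under 0.05, and the sum was 3091 to 4750 in controls and 2840 to 3209 after tamoxifen. Most of that sum was Sprr1a, a cornified envelope gene, at 2712, 4175 and 4351 in controls and 2496, 2490 and 2826 after tamoxifen, and its groups overlapped. Mast cell markers had a median of 0.44 over 6 genes, with 0 past the adjusted threshold and 4 higher at p under 0.05 before adjustment, beside 6.55% of all probesets. Of these 4, Fcer1a, a chain of the IgE receptor, lay in the background range on all arrays. The summed mast cell markers were 1752 to 2024 in controls and 2460 to 2621 after tamoxifen. Of 8 macrophage markers 0 rose and 0 fell by limma, and likewise 0 at p under 0.05 before adjustment (median 0.07), and of 5 adipocyte markers 0 passed and 2 were higher at p under 0.05 before adjustment (median 0.33). The part of any of these cell types in the level of Nmu was not tested.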

How the data were processed

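The authors deposited 1 linear intensity for each probeset on each array. MAS5 and mm9 are named by the submitters' processing notes without a role, and what was done for background and normalization is not given in the sources used here. Array names differ, Mouse Exon ST in the labels and Mouse Gene ST in the methods. Of 22369 probesets, 18286 had 1 gene symbol, 1276 several and 2807 none, and the brightest represents a gene. Gene order and promoters are RefSeq's (GRCm38.p6). As that build is not mm9, no other coordinates are given.
Values were put on the log2 scale without offset or filter and fitted with limma 3.58.1 (R 4.3.3) with group as the only term. The two-sided p-values were adjusted over all probesets (Benjamini-Hochberg), and rose or fell means an adjusted p under 0.05. In a design of 3 pools against 3 the smallest p of an exact permutation test is 0.1, and the number of arrays limits the precision. The fit was tested on simulated data. Plots were drawn in Python 3.11.15.
The members, lists and rule for named genes were chosen with earlier results of these data known. The rule took the 4 genes, the neighbours of Nmu, the 5 genes most like it, in each pathway list any gene past the threshold and up to 4 others with the smallest p, and defining markers. Furin, Pcsk1, Chga, Gnaq, Gna11, Gna15, Nmb, Il5, Fcer1a, Sprr1a, Stmn2, Elf5, Esr1, Cldn3, Sox10 and Fam183b were added after their values were seen. So were Myh11, Mylk, Krt5, Krt14, Neurod1, Nefm and Il4. Alternatives were 32 added to every intensity, quantile normalization, median centring, a floor at the background limit, each array left out, the replicate number as a block, an equal-variance t-test on log2 intensity (the methods' t-test), limma's robust fit with a variance trend, and a filter at the 25th percentile. All were called at an adjusted p under 0.05, while the study called genes by a nominal p and a limit on fold change.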

Additional observations from a re-analysis of the deposited data

How the results depend on the processing

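Nmu kept its direction under all 11 alternatives run on it, with log2 differences of 6.0 to 6.59, and the value that moved by more than the spread between pools was 6.0 with 32 added. With 1 array left out it was 6.38 to 6.59. Nmur1 ran from -0.67 to -0.04, Nmur2 from -0.19 to 0.18 and Nms from -0.11 to 0.10. No gene of the 4 had a further probeset to try.
Over all probesets, 63 rose and 24 fell in the main fit. The counts became 116 and 45 with 32 added and 104 and 39 with the background floor. They were 136 and 54 with a variance trend and 106 and 38 with the filter. By the methods' t-test at the same adjusted threshold they were 15 and 2, and with 1 array left out 18 to 27 and 2 to 6. With the replicate number as a block they were 13 and 2. Deviations from the group means correlated at 0.05, 0.01 and -0.04 between pools of the same number, and at -0.06 to 0.07 between other numbers. No shared deviation was seen, which cannot show whether the pools were paired. Of 168 list counts under the alternatives 18 differed from the main count. The processing list had 1 gene that rose (Cpe) and the granule list 1 that fell (Scg3) with 32 added, the floor, the trend and the filter. The neighbours of Nmu had 1 that rose (Clock) with 32 added and with the trend. In the G protein list 0 rose with the block, by the t-test and with any 1 array left out. The cause was not tested.
In the control pools 2 of the 4 genes lay in the background range, 4 at the 99th percentile and 1 under the 25th percentile of all probesets. In the tamoxifen pools it was 3, with 1 at the 90th percentile and 1 under that 25th percentile. Dim probesets limit what can be said of both receptors and of Nms.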
